A study of Mus musculus with 15 samples.

Results

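Immunoglobulin gene segments are the pieces of DNA from which antibody genes are assembled, and their transcripts were counted here in libraries prepared from sorted T cells. The members are the listed genes whose symbols begin with Ighv, Ighj, Ighd, Ighg, Ighm, Igha, Ighe, Igkv, Igkj, Igkc, Iglv, Iglj or Iglc. This rule found 107 of the 4567 genes that the authors' 4 tables of differentially expressed genes list. Of these, 49 belong to the heavy chain (39 variable, 4 joining and 6 constant genes), 52 to the kappa light chain (48 variable, 3 joining and 1 constant gene) and 6 to the lambda light chain (3 variable and 3 constant genes). A gene entered a table when the authors' own test gave it an adjusted p below 0.05 and its log2 fold change was beyond 2 in either direction, and 41 segments were in 1 table, 32 in 2, 29 in 3 and 5 in all 4. Ighm, Ighe, the heavy diversity segments, the lambda joining segments and Iglc4 were not among the listed genes, so Ighd below always means the constant region of IgD.

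The study asked how T cells with active caspase-1 differ from those without it during acute graft-versus-host disease (aGvHD). T cells and bone marrow of C57Bl/6 mice were transferred into lethally irradiated allogeneic BALB/c mice, and splenocytes taken on day 7 were sorted on CD4, CD8 and the fluorescence of Flica, a probe that binds active caspase-1. Flica-positive CD8 cells and Flica-negative cells of both lineages were sequenced, with 3 libraries each. CD4 and CD8 Flica-negative control cells came from untransplanted, untreated C57Bl/6 mice (day 0), also with 3 libraries each. No Flica-positive CD4 library was made, every day 7 cell came from an irradiated host, and cells of several mice with aGvHD were pooled per sort. The labels give no ages, no genetic alteration and no antibody or drug treatment.

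An antibody consists of heavy and light chains. Each chain has a variable part, assembled in developing B cells by joining a variable segment to a joining segment (with a diversity segment between them in heavy chains), and a constant part. Naive B cells carry IgM and IgD, and after activation a B cell can exchange its heavy constant gene for that of IgG, IgA or IgE, which is called class switching. Plasma cells transcribe the assembled genes at very high levels. T cells do not assemble functional antibody genes and build their receptors from other gene segments, although unrearranged immunoglobulin segments can be transcribed.

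The 4 IgG constant genes are told apart most easily at the hinge, the short exon between the antigen-binding arms and the stem, so these exons are shown for the genes on which the results turn. All sequences are from the GRCm38 assembly with GENCODE M21 transcripts, 5′ to 3′ on the coding strand, which is the minus strand for the whole heavy chain locus. Capitals mark in-frame cysteine codons, where the heavy chains can be linked to each other: 4 in Ighg1 (chr12:113329844-113329882), 4 in Ighg2b (chr12:113307261-113307326), 3 in Ighg2c (chr12:113288263-113288325) and 1 in Ighg3 (chr12:113360529-113360576).
Ighg1 hinge: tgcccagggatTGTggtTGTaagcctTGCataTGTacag
Ighg2b hinge: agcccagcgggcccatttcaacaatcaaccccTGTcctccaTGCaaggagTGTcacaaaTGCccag
Ighg2c hinge: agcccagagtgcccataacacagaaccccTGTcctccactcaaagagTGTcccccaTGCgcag
Ighg3 hinge: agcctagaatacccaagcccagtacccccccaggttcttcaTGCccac

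Over the whole coding sequence Ighg2b and Ighg2c were 87.8% identical, and the other pairs of IgG genes were 76.8 to 78.7% identical. The reference holds Ighg2c, the C57BL/6 form of this gene, where BALB/c mice carry Ighg2a. Gene counts therefore cannot tell donor from recipient transcripts. Iglc2 and Iglc3 were 96.2% identical and Iglv1 and Iglv2 96.9%, so reads of these pairs may be divided between the genes and single values for them are uncertain.

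Variable segments end a few codons after a conserved cysteine, and this end is what the joining segment is attached to. The last 120 coding bases are shown for 5 segments that were prominent in Flica-positive cells, with the last in-frame cysteine codon in capitals. They are Ighv14-4 (chr12:114176438-114176557, minus strand), Igkv8-24 (chr6:70216858-70216977, minus strand), Igkv17-121 (chr6:68037199-68037318, plus strand), Igkv1-117 (chr6:68121708-68121827, plus strand) and Iglv1 (chr16:19085017-19085136, minus strand). The cysteine codon was followed by 6 bases in Ighv14-4, by 24 in Iglv1 and by 23 in each of the 3 kappa segments.
Ighv14-4: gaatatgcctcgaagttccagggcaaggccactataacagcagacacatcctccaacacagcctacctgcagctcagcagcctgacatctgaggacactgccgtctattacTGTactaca
Igkv8-24: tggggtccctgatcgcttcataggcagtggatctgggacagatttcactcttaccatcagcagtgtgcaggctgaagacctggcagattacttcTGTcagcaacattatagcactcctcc
Igkv17-121: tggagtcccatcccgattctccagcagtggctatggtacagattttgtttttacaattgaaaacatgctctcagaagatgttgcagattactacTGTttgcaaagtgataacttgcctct
Igkv1-117: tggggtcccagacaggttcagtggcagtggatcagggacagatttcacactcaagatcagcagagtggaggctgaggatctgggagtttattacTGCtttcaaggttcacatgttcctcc
Iglv1: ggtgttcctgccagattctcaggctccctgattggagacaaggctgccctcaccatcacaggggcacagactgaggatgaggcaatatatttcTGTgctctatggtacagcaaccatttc

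Related variable segments share most of their sequence. The nearest other annotated segment was a median of 95.5% identical for the 39 heavy segments and 94.7% for the 48 kappa segments, and it was 97.4% identical for Ighv14-4 (Ighv14-1), 97.5% for Igkv17-121 (Igkv17-127), 97.2% for Igkv1-117 (Igkv1-110) and 91.0% for Igkv8-24 (Igkv8-30). A read may thus be credited to a near relative, and sums over segments are firmer than single ones. The listed variable segments are a minority of those annotated, which number 185 for IGHV (70 of them pseudogenes), 160 for IGKV (60 pseudogenes) and 3 for IGLV. No pseudogene was among the members.

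Values below are normalized counts, that is, read counts divided by the authors' size factor of the library, which lay between 0.836 and 1.25. Counts on listed genes summed to 2143579 to 3184674 per control or Flica-negative library and to 7310375 to 11046043 per Flica-positive library. These sums cover listed genes only, so they do not give the depth. Immunoglobulin segments took 0.189 to 0.279% of the listed counts in control libraries, 0.0150 to 0.0251% in CD4 Flica-negative, 0.0454 to 0.0758% in CD8 Flica-negative and 0.173 to 0.253% in Flica-positive libraries. Flica-positive replicate 3 stood furthest from its group. The chi-square per gene was 90.2 between replicates 1 and 2, 425 between 1 and 3 and 224 between 2 and 3. It was 12.2 to 33.9 in the other groups. This measure grows with read counts, which were larger on listed genes in Flica-positive libraries, so that contrast partly reflects count size. Cd8a, which encodes a chain of the CD8 co-receptor, lay between 9348 and 21642 in CD8 libraries and between 4.41 and 117 in CD4 libraries, in keeping with the labels. In bulk RNA, fewer cells of a type and less RNA per cell cannot be told apart.

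Among the heavy constant genes, Ighd fell on day 7 in both lineages, and IgG genes rose in CD8 cells, while no IgG gene passed in CD4 cells. Ighd (chr12:113406604-113416324), the constant gene of IgD, measured 1982, 1410.4 and 1318 normalized counts in CD8 control cells and 1674, 1341 and 1548 in CD4 control cells. On day 7 it measured 21.3, 24.3 and 36.2 in CD8 Flica-negative cells, 35.2, 113 and 75.3 in CD8 Flica-positive cells and 15, 93.8 and 65.7 in CD4 Flica-negative cells. No day 7 library came near a control library. By edgeR's quasi-likelihood test the log2 fold change was -5.83 (SE 0.32, adjusted p = 3.2e-07) in CD8 Flica-negative, -4.40 (SE 0.45, adjusted p = 5.1e-05) in CD8 Flica-positive and -4.72 (SE 0.48, adjusted p = 6.9e-06) in CD4 Flica-negative cells against their controls. Between the day 7 CD8 groups, Ighd did not pass the test (log2 1.44, SE 0.69, adjusted p = 0.15) and their ranges overlapped.

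Ighg2c (chr12:113285325-113288932), which encodes the IgG2c heavy chain, went the other way. It measured 4758, 6968 and 3913 in Flica-positive cells, 196, 358 and 219 in CD8 Flica-negative cells and 8.81, 13.4 and 0 in CD8 control cells. The groups formed 3 separate levels, with means of 5213 ± 1578, 258 ± 87.8 and 7.41 ± 6.82 (SD, n = 3 each). The Flica-positive mean was 20.2-fold that of Flica-negative cells (log2 4.34, SE 0.33, adjusted p = 5.6e-06) and 703-fold that of control cells (log2 9.41, SE 0.78, adjusted p = 1.8e-05). CD8 Flica-negative cells were 34.8-fold above control (log2 5.08, SE 0.78, adjusted p = 0.00028). In CD4 Flica-negative cells the gene measured 152, 0 and 0, so a single library held all of its reads, and the difference from CD4 control cells (5.58, 0 and 12.5) did not pass (adjusted p = 0.16).

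The other IgG genes had the same order in CD8 cells. Ighg1 (chr12:113325240-113330523) measured 766, 3319 and 1727 in Flica-positive, 274, 119 and 94.1 in Flica-negative and 0.881, 6.27 and 5.77 in control CD8 cells, with a log2 fold change of 3.58 (SE 0.55, adjusted p = 0.00059) between the day 7 groups. Ighg2b (chr12:113302965-113307933) measured 1443, 743 and 971 in Flica-positive, 73.5, 72.8 and 16.4 in Flica-negative and 9.69, 3.58 and 0 in control CD8 cells (log2 4.28, SE 0.52, adjusted p = 0.00011 between the day 7 groups). For both genes all Flica-positive libraries lay above all Flica-negative ones and these above all controls. Ighg3 (chr12:113356224-113361232) measured 367, 554 and 172 in Flica-positive, 23.4, 16.8 and 30.2 in Flica-negative and 7.93, 0 and 26.0 in control CD8 cells. It was higher in Flica-positive cells than in either group (log2 3.95, SE 0.52, adjusted p = 0.00019 against Flica-negative and 5.01, SE 1.13, adjusted p = 0.0047 against control), while Flica-negative and control cells overlapped (adjusted p = 0.42).

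Igha, the constant gene of IgA, was uneven. It measured 68.0, 391 and 0 in Flica-positive, 4.26, 38.3 and 25.9 in Flica-negative and 10.6, 0.895 and 0 in control CD8 cells. It passed against control cells (log2 5.26, SE 2.00, adjusted p = 0.042) although the ranges overlapped, and the call was lost without Flica-positive replicate 1 (adjusted p = 0.064), without Flica-positive replicate 2 (log2 3.10, adjusted p = 0.21), or without control replicate 2 (adjusted p = 0.11) or 3 (adjusted p = 0.12). It was also lost with TMM scaling (log2 3.70, adjusted p = 0.13), with scaling by summed counts (log2 3.05, adjusted p = 0.17) and with the replicate block (adjusted p = 0.079). Against Flica-negative cells it did not pass (adjusted p = 0.16).

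**Figure D1:**
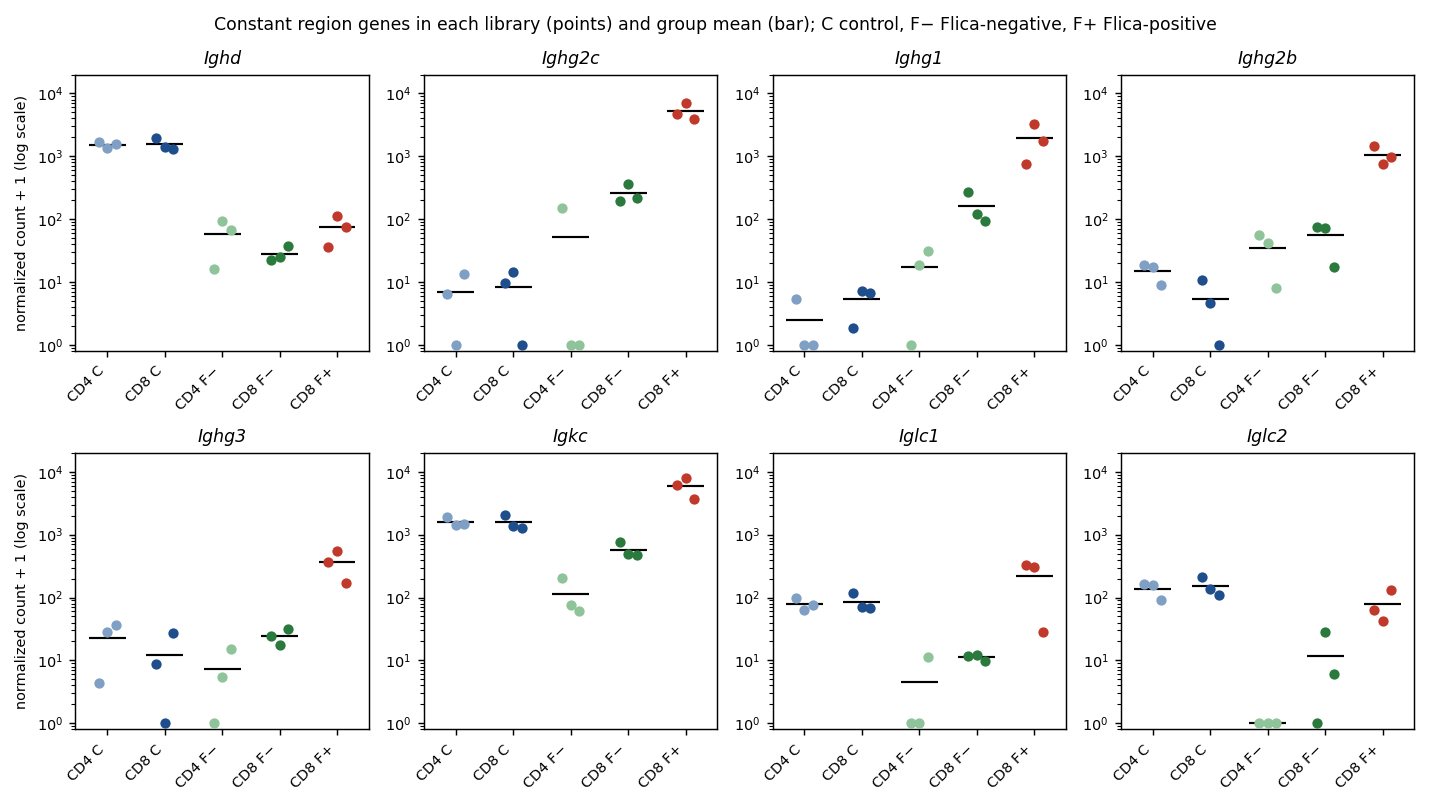
Normalized counts (log axis, with 1 added) of Ighd, the 4 IgG genes, Igkc, Iglc1 and Iglc2 in the 15 libraries. There is 1 point per library and a bar at the mean of each group. Igha and Iglc3 are not drawn. The 4 IgG genes stand highest in the Flica-positive libraries (Ighg2c between 3913 and 6968), whereas Ighd stands highest in the control libraries (1318 to 1982).

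Shares within a library do not depend on how libraries are scaled. Counts of the 6 heavy constant genes were divided by exon length and expressed as a percentage of their sum, a share of level per kilobase. Ighd took 96.6 to 98.3% of this sum in the 6 control libraries, 3.39 to 7.68% in CD8 Flica-negative and 0.401 to 0.970% in Flica-positive libraries. The 4 IgG genes together took 1.30 to 3.16% in control libraries, 95.8, 92.8 and 88.4% in CD8 Flica-negative and 99.0, 97.2 and 99.0% in Flica-positive libraries. Both CD8 groups of day 7 were therefore almost wholly IgG by this measure, and they differed mainly in amount: the 4 IgG genes summed to 7333, 11584 and 6783 in Flica-positive and to 567, 566 and 359.9 in Flica-negative CD8 libraries, a ratio of means of 17.2 (log2 4.11). With TMM factors set over all 15 libraries this ratio was 2.87 on the log2 scale. Ighm and Ighe have no value in this comparison.

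CD4 Flica-negative cells were mixed on the same measure. Ighd took 5.03, 56.6 and 60.2% and the IgG genes 86.1, 27.1 and 35.1% in replicates 1, 2 and 3, with 207, 62.5 and 52.1 IgG counts behind these shares. Replicate 1, the library with the Ighg2c reads, stood apart from the other two. Of the IgG genes, Ighg1 was lower in CD4 than in CD8 Flica-negative cells (0, 17.9 and 30.4 against 274, 119 and 94.1, log2 -3.31, SE 0.78, adjusted p = 0.0069), a call that was lost with DESeq2 (adjusted p = 0.069).

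Within the IgG sum of a library, Ighg2c was the leading gene per kilobase in all 3 Flica-positive libraries, with 78.5, 74.7 and 72.9%. It also led in CD8 Flica-negative libraries, with 50.9, 77.2 and 75.2%. These shares depend on the exon lengths used: 1326 bases for Ighg2c, against 2592 for Ighg1, 2678 for Ighg2b and 2512 for Ighg3. Their coding sequences are nearly equal in length (1211, 1178, 1214 and 1196 bases), so dividing by exon length raises the Ighg2c share. In Flica-negative replicate 1 the normalized count of Ighg1 exceeded that of Ighg2c. Ighg2c had the largest IgG count in the other day 7 CD8 libraries. Ighg1 took 6.47, 18.2 and 16.5% in Flica-positive and 36.4, 13.1 and 16.5% in Flica-negative CD8 libraries, so the make-up of the IgG transcripts overlapped between these groups.

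**Figure D2:**
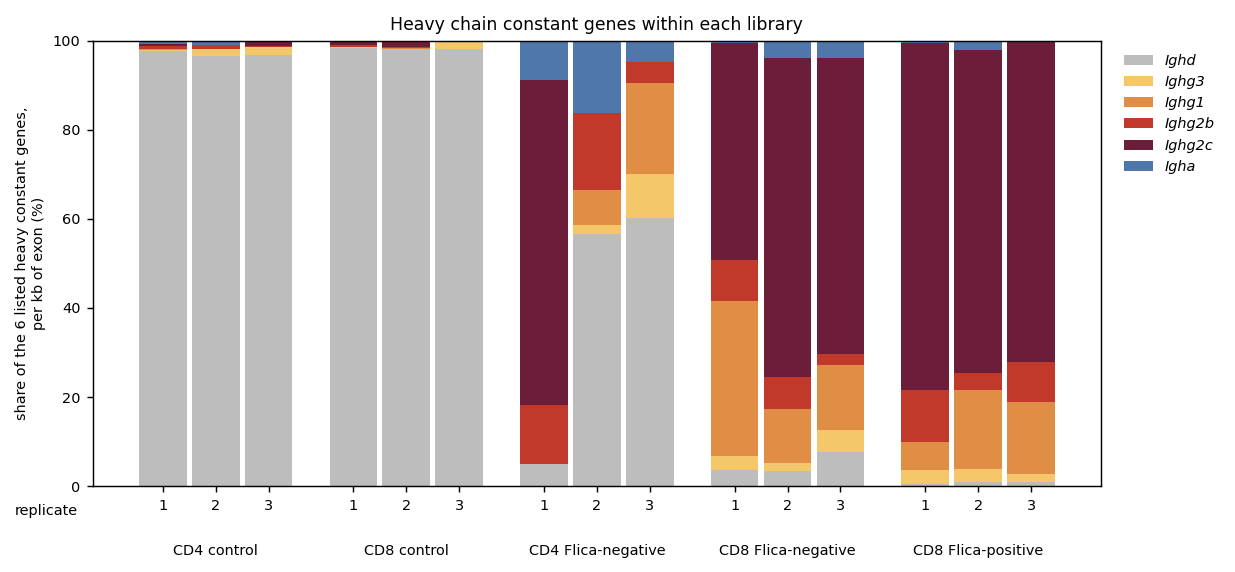
Share (percent, per kilobase of exon) of each listed heavy constant gene in each of the 15 libraries, drawn as stacked bars that reach 100. Ighd fills 96.6 to 98.3% of each control bar, and the IgG genes fill 88.4% or more of each day 7 CD8 bar.

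Of the 4 light chain constant genes, all but Iglc2 were called higher in the Flica-positive of the day 7 CD8 groups, and only Igkc was called higher than in control CD8 cells. Igkc (chr6:70726435-70726966), the only kappa constant gene, measured 6218, 7961 and 3714 in Flica-positive, 759.6, 496 and 469 in Flica-negative and 2049, 1389.8 and 1283 in control CD8 cells. The Flica-positive mean was 10.4-fold that of Flica-negative cells (log2 3.38, SE 0.32, adjusted p = 2.2e-05). It was 3.79-fold the control mean (log2 1.92, SE 0.32, adjusted p = 0.00092) by the authors' size factors, but this rise was 0.31 on the log2 scale with TMM scaling (adjusted p = 0.51) and turned to -0.24 with scaling by summed counts. Flica-negative CD8 cells were below control (log2 -1.45, SE 0.27, adjusted p = 0.00093). In CD4 Flica-negative cells Igkc measured 201, 75.9 and 60.1 against 1892, 1445 and 1491 in CD4 control cells, a 14.3-fold lower mean (log2 -3.84, SE 0.41, adjusted p = 9.3e-06).

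Lambda constant genes, which encode the less used mouse light chain, were present at lower levels. Iglc1 (chr16:19061618-19062071) measured 324, 307 and 27.5 in Flica-positive, 10.7, 11.2 and 8.63 in Flica-negative and 117, 69.0 and 66.4 in control CD8 cells. It was higher in Flica-positive cells than in Flica-negative ones (log2 4.42, SE 0.84, adjusted p = 0.0026), lower in Flica-negative than in control cells (log2 -3.04, SE 0.55, adjusted p = 0.00076), and did not pass between Flica-positive and control cells (log2 1.38, SE 0.82, adjusted p = 0.15). Iglc2 measured 62.1, 41.2 and 129 in Flica-positive, 0, 27.1 and 5.18 in Flica-negative and 209, 137 and 111 in control CD8 cells. Iglc3 measured 17.6, 199 and 0 in Flica-positive, 1.07, 0 and 0 in Flica-negative and 124, 75.2 and 162 in control CD8 cells, so the Flica-positive values rested on replicate 2. Its call between the day 7 groups (adjusted p = 0.024) was lost without Flica-positive replicate 2 (adjusted p = 0.24) or without Flica-negative replicate 1, 2 or 3 (adjusted p = 0.074, 0.11 and 0.078). Both Iglc2 and Iglc3 were at 0 in all CD4 Flica-negative libraries, at least 48.7-fold and 44.3-fold below CD4 control cells when 3 counts per library are taken as the floor.

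Per kilobase, Igkc took 77.9 to 85.9% of the listed light constant transcripts in control libraries, 93.1 to 98.2% in CD8 Flica-negative and 92.7 to 96.3% in Flica-positive libraries. The lambda genes took the remaining 14.1 to 22.1, 1.78 to 6.87 and 3.74 to 7.33%. The kappa share of the constant genes in every day 7 CD8 library was thus above that of every control library, a difference that the scaling of libraries does not touch. The variable segments did not show it: lambda took 10.2 to 18.2% of the listed light variable transcripts per kilobase in control, 3.97 to 25.1% in CD8 Flica-negative and 11.4 to 15.5% in Flica-positive libraries, which overlapped.

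Against this background the segments were counted by call, taking an adjusted p below 0.05 over all listed genes tested. Between the day 7 CD8 groups, 47 of 102 segments were higher and 0 were lower in Flica-positive cells, where 21.7% of all genes tested were called higher and 2.8% lower. At an unadjusted p below 0.05 the count of lower segments was also 0, and DESeq2 called 0 lower. A lower call was hardly open to most segments. In CD8 Flica-negative cells only 5 of 39 heavy and 7 of 48 kappa variable segments had a mean normalized count of at least 10. The count of 0 lower segments is therefore not a result about them. Scaling by summed counts gave 26 higher and 1 lower. The called segments were 23 of 38 heavy variable, 16 of 45 kappa variable and 1 of 3 lambda variable segments, 4 of 6 heavy constant genes, Igkc and 2 of 3 lambda constant genes. None of the 6 joining segments tested was called. All Flica-positive libraries exceeded all Flica-negative ones for 38 segments, a pattern found in 31.9% of all genes. The median log2 fold change was 4.36 over the segments and 0.45 over all genes, or 3.81 and 0.45 with genes at 0 in a whole group set at their bound. These libraries had also been used to list the genes. Without Flica-negative replicate 2, 28 segments passed, and without Flica-positive replicate 3, 58 did.

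Against control CD8 cells, 28 of 107 segments were higher and 7 were lower in Flica-positive cells. Of all genes, 47.2% were called higher and 24.2% lower, so the shares of called segments lay below both backgrounds. The split depended on scaling: 13 higher and 11 lower with TMM scaling, and 8 higher and 16 lower with scaling by summed counts, settings under which the median over all genes (log2) went from 2.04 to 0.38 and -0.04. The segment median was 1.66 by the authors' size factors, 0.09 with TMM and -0.32 with summed counts, below the median of all genes each time. Without Flica-positive replicate 3, 40 segments were higher and 8 lower. The Flica-positive libraries lay above all control libraries for 30 segments (48.5% of all genes) and below them for 7 (31.4%). The higher calls comprised the 4 IgG genes, Igha, Igkc, 14 heavy variable, 7 kappa variable and 1 lambda variable segments, and the lower ones were Ighd, Iglv3, 1 heavy variable and 4 kappa variable segments.

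**Figure D3:**
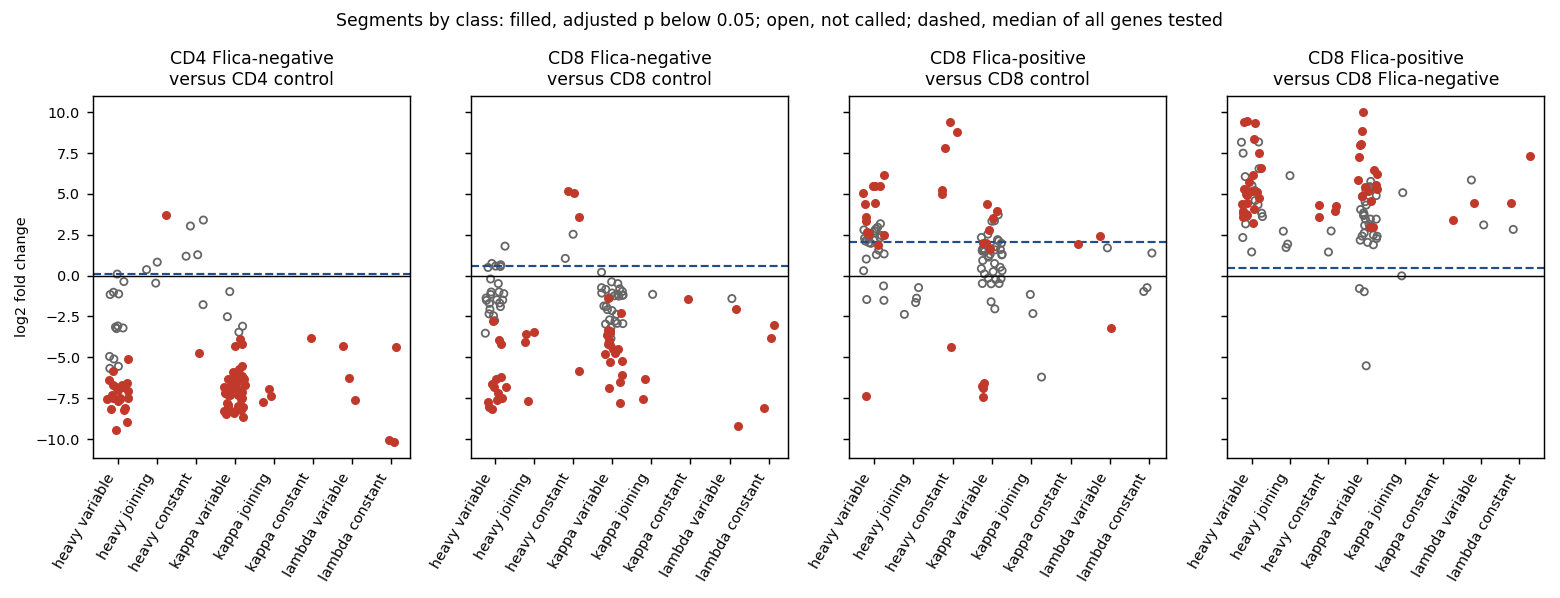
Fitted log2 fold change of each tested segment, 1 point per segment, arranged by class and comparison, with called segments filled and a dashed line at the median of all genes tested. Between the day 7 CD8 groups all 47 called segments lie above 0, and in CD4 Flica-negative against CD4 control cells 76 of 77 lie below 0.

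CD8 Flica-negative cells fell below control for most classes. Of 106 segments tested, 3 were higher (Ighg1, Ighg2b and Ighg2c) and 48 were lower, against 38.8% and 29.9% of all genes. The lower ones were 14 of 38 heavy variable, 21 of 48 kappa variable and 2 of 3 lambda variable segments, all 4 heavy joining and 2 of 3 kappa joining segments, Ighd, Igkc and the 3 lambda constant genes. The groups were separate for 43 lower segments (33.3% of all genes) and 3 higher ones (41.8%). The segment median was -2.58 (log2) and that of all genes 0.61. Without CD8 control replicate 1, 33 segments were called in all.

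Lower calls were most numerous in CD4 cells, but 82 of the 107 segments had been listed for this comparison. For Flica-negative and Flica-positive CD8 cells against control, 38 and 32 had been listed. The number of calls in CD4 cells thus partly restates the listing. Of 102 segments, 76 were lower and 1 was higher in CD4 Flica-negative than in CD4 control cells, against 27.9% and 33% of all genes, and 71 were lower without overlap (32.9% of all genes). Of the 102 segments, 70 had no read in any CD4 Flica-negative library, so their fitted values are no bound. With these at the floor the segment median was -2.67, against 0.04 over all genes. The lower calls included 43 of 47 kappa variable, 22 of 35 heavy variable, all 3 lambda variable, all 3 lambda constant and all 3 kappa joining segments, Igkc and Ighd. The higher call was Ighj1. None of the IgG genes or Igha passed.

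Read across the 4 comparisons, the largest group of segments had a single call: 27 were lower in CD4 Flica-negative cells and uncalled elsewhere. A further 15 were lower in both Flica-negative populations alone, 10 were lower in both and higher in Flica-positive CD8 cells than in Flica-negative ones, and 8 were higher in Flica-positive cells than in both other CD8 groups and lower in CD4 Flica-negative cells. Ighg1, Ighg2b and Ighg2c were the 3 segments called higher in all 3 CD8 comparisons. The 3 CD8 comparisons share libraries pairwise, so the patterns are not independent. The same 4 comparisons served to list the segments, 82 of them for CD4 Flica-negative against CD4 control cells. The pattern counts therefore partly restate that listing.

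The CD4 and CD8 Flica-negative cells of day 7 were also compared, a comparison that was not used to list genes. Of 63 segments tested, 9 were lower and 2 were higher in CD4 cells, against 12.6% and 10.1% of all genes, so the share of lower segments was near the background and that of higher segments below it. The lower segments were Igkc, Ighg1, 1 heavy variable, 5 kappa variable and 1 lambda variable segment, and the higher ones were Ighj1 and Ighj3. Igkc was 5.12-fold lower in CD4 cells (log2 -2.35, SE 0.40, adjusted p = 0.00077) without overlap. The calls of Ighj1 and Ighj3 were lost without CD4 Flica-negative replicate 2 (adjusted p = 0.055 and 0.096) or 3 (adjusted p = 0.34 and 0.062), without CD8 Flica-negative replicate 2 (adjusted p = 0.10 and 0.065), and with all 15 libraries in 1 fit (adjusted p = 0.084 and 0.060). That of Ighj1 was also lost without CD8 Flica-negative replicate 1 (adjusted p = 0.082) and that of Ighj3 without replicate 3 (adjusted p = 0.062). Over all segments, leaving out CD4 Flica-negative replicate 2 or 3, or CD8 Flica-negative replicate 1 or 2, left 5, 7, 7 and 6 calls. Before transplantation few segments differed: of 105 segments 0 were higher and 1 (Ighj1) was lower in CD4 control than in CD8 control cells, against 7.11% and 5.85% of all genes, and the segment median was -0.04. DESeq2 also called 0 higher, as did an unadjusted p below 0.05.

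The day 7 response itself, Flica-negative against control, was compared between the lineages with a fit of these 4 groups. Of 106 segments, 10 had a lower and 1 a higher response in CD4 than in CD8 cells, against 4.66% and 5.7% of all genes. Igkc was among the former (difference of log2 fold changes -2.38, SE 0.50, adjusted p = 0.0042), and Ighj1 was the latter (7.78, adjusted p = 0.012). The count fell to 7 without CD4 control replicate 1 or CD8 control replicate 1, to 6 without CD8 control replicate 3 or CD4 Flica-negative replicate 3, and to 5 without CD8 control replicate 2 or CD4 Flica-negative replicate 2.

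Summed by class, the levels of variable segments were ordered Flica-positive, control, Flica-negative by the authors' size factors. Heavy variable segments summed to 3739 ± 567 in Flica-positive CD8 cells, against 194 ± 75.0 in Flica-negative and 651 ± 207 in control ones (SD, n = 3 each). Kappa variable segments summed to 3999.6 ± 435, 248 ± 87.5 and 1122 ± 214, and lambda variable segments to 697 ± 205, 40.9 ± 33.9 and 214 ± 85.6. Flica-positive means were 19.3-, 16.1- and 17.0-fold the Flica-negative means (log2 4.27, 4.01 and 4.09). With TMM factors set over all 15 libraries these log2 ratios were 3.02, 2.75 and 2.92. Against control cells the log2 ratios of 2.52, 1.83 and 1.70 were 0.73, 0.043 and -0.049 with TMM, so the order of Flica-positive and control cells was lost for kappa and lambda segments. Heavy joining segments differed: 45.3 ± 13.4, 7.81 ± 12 and 131 ± 35.8, so that Flica-positive cells stood above Flica-negative but below control cells. All segments together summed to 22441, 30308 and 18099 in Flica-positive, 2022, 1661 and 1232 in Flica-negative and 7178, 4825 and 5067 in control CD8 cells, and to 637, 412 and 421 in CD4 Flica-negative cells. With TMM the log2 ratio of this sum went from 3.85 to 2.62 between the day 7 CD8 groups and from 2.05 to 0.27 for Flica-positive against control cells.

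Individual variable segments, which encode the antigen-contacting domain, were tested on the same terms. Ighv14-4, whose end is printed above, had the largest difference among the named heavy segments. It measured 220.4, 499 and 197 in Flica-positive, 1.07, 0 and 3.45 in Flica-negative and 12.3, 0 and 0 in control CD8 cells. The log2 fold change was 7.50 (SE 0.82, adjusted p = 5e-05) against Flica-negative and 6.15 (SE 1.32, adjusted p = 0.0037) against control cells, and both calls held under every scaling tried. In CD4 cells it measured 22.9, 16.7 and 0 on day 7 against 17.9, 5.80 and 13.3 in controls (adjusted p = 0.96), one of the few variable segments that kept reads there.

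Igkv8-24 stood above control by a wide margin. It measured 227, 337 and 508 in Flica-positive, 7.46, 12.1 and 16.4 in Flica-negative and 21.1, 16.1 and 13.5 in control CD8 cells. The Flica-positive mean was 29.8-fold the Flica-negative mean (log2 4.87, SE 0.50, adjusted p = 3.5e-05) and 21.1-fold the control mean (log2 4.39, SE 0.53, adjusted p = 0.00014), also under every scaling tried. Its family relative Igkv8-27 measured 176, 406 and 182 in Flica-positive, 9.59, 5.60 and 16.4 in Flica-negative and 15, 15.2 and 36.5 in control CD8 cells (log2 4.57, SE 0.61, adjusted p = 0.00022 between the day 7 groups). For both segments the Flica-positive libraries lay above all others.

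Igkv1-117 differed from these in its control level. It measured 433, 229.6 and 258 in Flica-positive, 5.33, 5.60 and 8.63 in Flica-negative and 88.1, 82.4 and 55.8 in control CD8 cells. It was 47.1-fold higher in Flica-positive cells than in Flica-negative ones (log2 5.52, SE 0.52, adjusted p = 2e-05) and 11.6-fold lower in Flica-negative than in control cells (log2 -3.50, SE 0.58, adjusted p = 0.00046). The rise over control (log2 2.02, adjusted p = 0.0051) was 0.41 with TMM scaling (adjusted p = 0.51) and -0.11 with summed counts. Igkv17-121 measured 79.7, 133 and 713 in Flica-positive, 1.07, 0 and 4.32 in Flica-negative and 46.7, 48.4 and 36.5 in control CD8 cells, with replicate 3 far above the other two. Its rise over Flica-negative cells passed (log2 7.27, SE 1.12, adjusted p = 0.00061), and that over control cells (log2 2.81, SE 0.83, adjusted p = 0.016) was lost without Flica-positive replicate 3 (log2 1.28, adjusted p = 0.085) or control replicate 3 (adjusted p = 0.060) and with either other scaling.

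Some variable segments were called lower or rested on 1 library. Ighv1-80, Igkv3-2 and Igkv16-104 had no read in any Flica-positive library, at least 5.89-, 6.23- and 3.42-fold below control CD8 cells (adjusted p = 0.0086, 0.0088 and 0.046). These calls were lost with the replicate block (adjusted p = 0.086, 0.083 and 0.16). Igkv16-104 overlapped the control range, and its call was also lost with DESeq2 (adjusted p = 0.094). It was lost too when control replicate 1 or 2 or any Flica-positive replicate was left out (adjusted p = 0.065 to 0.12). Ighv1-26, a member of the largest family, measured 74.9, 47.5 and 62.5 in control, 41.5, 45.7 and 5.18 in Flica-negative and 16.4, 449 and 0 in Flica-positive CD8 cells. It passed in no CD8 comparison (adjusted p = 0.23 to 0.43), and the Flica-positive mean was set by replicate 2. Of the other named segments, Ighv1-39, Ighv1-69, Ighv1-64, Ighv1-82, Ighv5-6, Ighv9-3, Igkv1-110, Igkv1-135 and Igkv14-126 were called higher in Flica-positive cells than in Flica-negative ones, with log2 fold changes between 2.99 and 5.20, while Igkv10-96 was not (log2 3.45, adjusted p = 0.063). Of these calls, those of Ighv1-64, Ighv1-82, Ighv5-6 and Ighv9-3 were lost when 1 library was left out, with adjusted p up to 0.12, 0.14, 0.092 and 0.074. Scaling by summed counts lost the calls of Ighv1-39, Ighv1-64, Ighv1-69, Ighv1-82, Ighv5-6, Igkv1-110 and Igkv1-135 (adjusted p = 0.078, 0.22, 0.057, 0.11, 0.23, 0.26 and 0.21). That of Ighv1-64 was also lost with TMM (adjusted p = 0.086), that of Ighv1-82 with DESeq2 (adjusted p = 0.058) and the replicate block (adjusted p = 0.066), and that of Ighv5-6 with all 15 libraries in 1 fit (adjusted p = 0.077). The Ighv1 family, the largest with 22 listed segments, had 13 calls higher in this comparison and summed to means of 1992, 109 and 444 in Flica-positive, Flica-negative and control CD8 cells.

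The leading variable segments differed between libraries of most groups. In Flica-positive replicate 1 the leading heavy segment per kilobase was Ighv1-69, with 6.92% of the heavy variable sum. It was Ighv14-4 with 11.9% in Flica-positive replicate 2 and Ighv9-3 with 10.8% in Flica-positive replicate 3. The leading kappa segment of these libraries was Igkv1-117 (10.0%), Igkv14-126 (11.8%) and Igkv17-121 (20.3%). The heavy leader was Ighv1-26 in all 3 CD8 control libraries (9.01, 10.9 and 10.5%), but in CD4 control libraries it was Ighv1-26 (8.36%), Ighv1-80 (10.7%) and Ighv1-55 (20.7%). Kappa leaders differed in controls too: Igkv10-96, Igkv1-135 and Igkv17-127 in CD8 and Igkv10-96, Igkv1-117 and Igkv1-135 in CD4 control libraries. The 5 leading kappa segments together took 38.0, 45.4 and 58.5% in Flica-positive libraries and 25.7 to 33.3% in control libraries. The effective number of kappa segments, the number of equally used segments that would give the same evenness, was 20.5, 16.3 and 10.3 in Flica-positive, 18.4, 12.3 and 13.2 in CD8 Flica-negative and 24.9 to 32.8 in control libraries. For heavy segments it was 24.8, 17.6 and 15.3 in Flica-positive libraries and 12.7 to 24.8 in control libraries, which overlapped. The kappa values cover only the 48 listed of 160 annotated segments. Of all 107 members, 82 were listed for CD4 Flica-negative against CD4 control cells. A set chosen this way may be fuller in control libraries, so the lower day 7 kappa values are not a result about the repertoire. The CD8 Flica-negative kappa values also rest on only 325, 237 and 206 reads.

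The spread of variable segments between replicates was described by the median coefficient of variation over 3 libraries, among segments with a mean of at least 10. For heavy segments it was 86.8% in Flica-positive, 74.4% in CD4 control and 53.9% in CD8 control cells. For kappa segments it was 97.5, 48.8 and 46.2%. In Flica-positive cells 14 heavy and 13 kappa segments exceeded 100 in one library and were at 0 in another, and none did so in any other group, where levels were lower. Flica-positive replicates 1, 2 and 3 had 4, 6 and 18 of 39 heavy and 11, 17 and 26 of 48 kappa segments at 0. In CD4 Flica-negative cells 29 of 39 heavy and 40 of 48 kappa segments were at 0 in every library, and the kappa sum rested on 82, 4 and 22 reads.

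**Figure D4:**
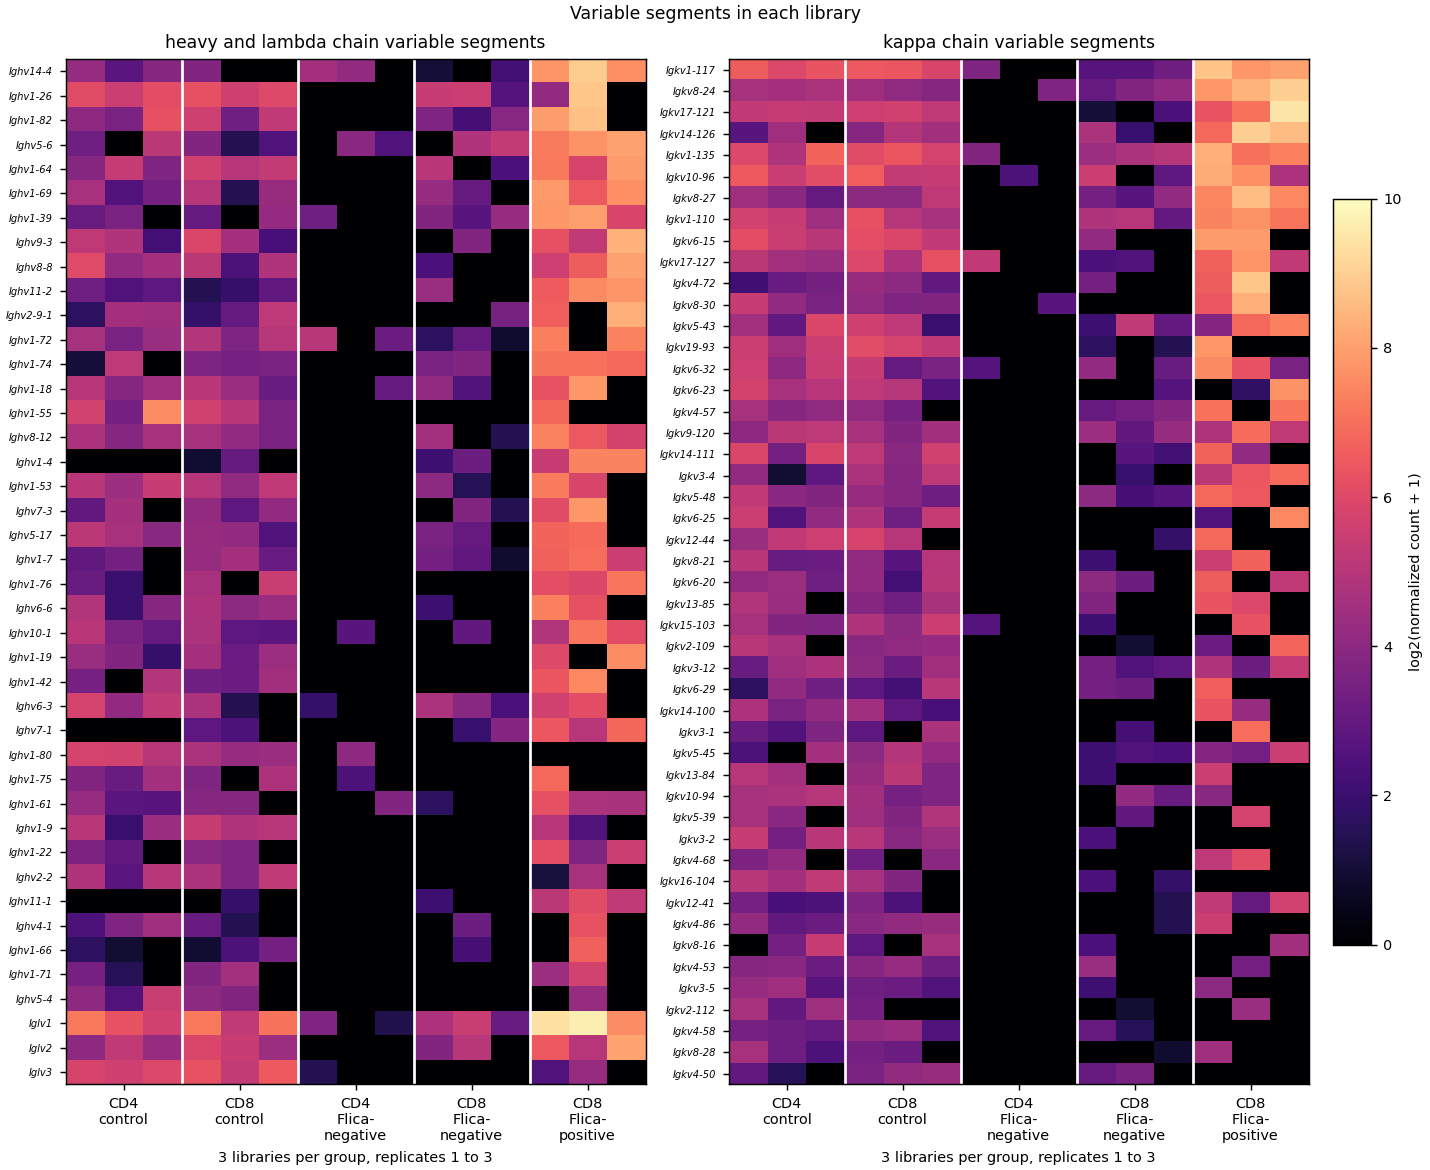
Normalized counts (colour, log2 scale with 1 added) of the 39 heavy, 3 lambda and 48 kappa variable segments in the 15 libraries, 1 row per segment and 1 column per library. Flica-positive libraries combine high values with segments at 0 (18 heavy and 26 kappa segments in replicate 3), and most cells of the CD4 Flica-negative columns are at 0.

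Lambda variable segments are few in the mouse, and all 3 were listed. Iglv1 (chr16:19085017-19085500) measured 668, 812 and 195 in Flica-positive, 26.6, 42.9 and 7.77 in Flica-negative and 146, 36.7 and 134 in control CD8 cells (log2 4.44, SE 0.67, adjusted p = 0.00054 between the day 7 groups). Its rise over control (log2 2.40, adjusted p = 0.012) was 0.84 with TMM scaling (adjusted p = 0.32). Iglv2 measured 87.9, 31.8 and 273 in Flica-positive, 12.8, 32.7 and 0 in Flica-negative and 58.1, 42.1 and 20.2 in control CD8 cells and passed in none of the CD8 comparisons. Iglv3, which was 57.3 and 56.8% identical to the other two, went against them: it measured 4.69, 17.7 and 0 in Flica-positive, 0 in every Flica-negative and 77.5, 39.4 and 89.4 in control CD8 cells. It was below control in Flica-positive cells (log2 -3.18, SE 1.26, adjusted p = 0.048), a call lost without Flica-positive replicate 1 (adjusted p = 0.11) or any control library, and at least 24.0-fold below it in Flica-negative cells (adjusted p = 0.00018).

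Joining segments lie between the variable and constant genes and carry a conserved glycine-containing motif, which starts with a tryptophan codon in heavy chains and a phenylalanine codon in light chains. Their sequences are shown because Ighj1 was called higher on day 7 in CD4 cells and lower in CD8 cells, with the codon pair for tryptophan and glycine (TGGGGN) or phenylalanine and glycine (TTCGGN) in capitals. The positions are chr12:113429781-113429833 for Ighj1, chr12:113429468-113429515 for Ighj2, chr12:113429085-113429132 for Ighj3 and chr12:113428514-113428567 for Ighj4 on the minus strand, and chr6:70722562-70722599, chr6:70723548-70723585 and chr6:70723886-70723923 for Igkj1, Igkj4 and Igkj5 on the plus strand.
Ighj1: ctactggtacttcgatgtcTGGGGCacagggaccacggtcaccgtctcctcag
Ighj2: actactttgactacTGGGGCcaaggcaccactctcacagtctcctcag
Ighj3: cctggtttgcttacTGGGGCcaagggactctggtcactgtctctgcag
Ighj4: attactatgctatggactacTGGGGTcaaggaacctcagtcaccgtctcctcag
Igkj1: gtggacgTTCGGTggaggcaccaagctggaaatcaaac
Igkj4: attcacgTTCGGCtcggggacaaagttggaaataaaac
Igkj5: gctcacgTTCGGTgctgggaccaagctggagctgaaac

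The motif was searched on the coding strand and found in 4 of 4 annotated Ighj and 4 of 5 annotated Igkj segments (TTCGGN or TTTGGN for the latter). Ighj1 measured 7.05, 17.9 and 84.9 in CD4 Flica-negative and 3.35, 4.83 and 0 in CD4 control cells, but 0, 0 and 6.04 in CD8 Flica-negative and 42.3, 21.5 and 47.1 in CD8 control cells. It was higher on day 7 in CD4 cells (log2 3.72, SE 1.27, adjusted p = 0.025) and lower in CD8 cells (log2 -4.06, SE 1.23, adjusted p = 0.014). The rise in CD4 cells was lost without CD4 Flica-negative replicate 3 (log2 2.15, adjusted p = 0.27) or CD4 control replicate 1 (adjusted p = 0.055) and with the replicate block (adjusted p = 0.14). The kappa joining segments did not differ in direction: 3 of 3 were called lower in CD4 and 2 of 3 in CD8 Flica-negative cells. The CD8 call of Igkj4 was lost with DESeq2 (adjusted p = 0.052), the replicate block (adjusted p = 0.14), and without CD8 control replicate 1 or any Flica-negative replicate (adjusted p = 0.065 to 0.076). The CD4 call of Igkj1 was lost with the block (adjusted p = 0.058) and without CD4 control replicate 3 or CD4 Flica-negative replicate 1 or 2 (adjusted p = 0.060 to 0.077). That of Igkj5 was lost with the block (adjusted p = 0.057). Control cells already differed in Ighj1 (CD4 against CD8, log2 -3.72, SE 1.09, adjusted p = 0.031), a call lost without CD4 control replicate 1 (adjusted p = 0.073), CD8 control replicate 1 (adjusted p = 0.13) or CD8 control replicate 3 (adjusted p = 0.087). Without CD8 control replicate 1 the single call of that comparison was another segment, which was higher in CD4 cells.

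The other heavy joining segments fell in CD8 Flica-negative cells too. Ighj2 measured 0, 0 and 6.04, Ighj3 0 throughout and Ighj4 0, 1.87 and 9.49, against ranges of 13.5 to 35.8, 15.9 to 32.7 and 17.3 to 93.1 in control CD8 cells (adjusted p = 0.043, 0.0023 and 0.018). In Flica-positive cells they measured between 0 and 28.7 and passed against neither group. In CD4 cells Ighj2, Ighj3 and Ighj4 passed in neither direction (adjusted p = 0.77, 0.68 and 0.68). Igkj1 and Igkj4 had no read in any Flica-negative library of either lineage, and Igkj4 had none on day 7 at all. The heavy joining calls rest on few reads, and several were lost when 1 library was left out: Ighj2 without control replicate 1 or 2 or Flica-negative replicate 1 or 2 (adjusted p = 0.080 to 0.11) and Ighj4 without control replicate 2 or Flica-negative replicate 2 (adjusted p = 0.11 and 0.057).

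Genes of the B lineage other than the segments were read from lists of markers. All 18 B cell markers were listed, among them Cd79a and Cd79b of the B cell receptor complex and Ms4a1, which encodes CD20. Their sum lay between 12615 and 16853 in CD8 control, between 1025 and 1164 in CD8 Flica-negative, between 1293 and 1738 in Flica-positive and between 1315 and 1534 in CD4 Flica-negative libraries. Ms4a1 was at 0 in every Flica-negative library of both lineages. Against control, 17 of 18 were lower in Flica-positive cells and 0 higher, where 24.2% of all genes were called lower and 47.2% higher. Between the day 7 CD8 groups 2 of 17 were higher in Flica-positive cells and 0 lower, against 21.7% and 2.8% of all genes. The share of higher markers was thus below the background. The 2 were Cd79a (45.7, 125 and 117 against 16, 15.9 and 11.2, adjusted p = 0.014) and Ms4a1 (21.1, 80.0 and 0 against 0 in each, adjusted p = 0.039). The segments therefore stood 14.4-fold higher in Flica-positive CD8 cells than in Flica-negative ones in sum by the authors' size factors, in libraries whose B cell marker sums differed far less.

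Of 15 plasma cell markers, 5 were listed. Jchain, which encodes the chain that links IgM and IgA units and is abundant in antibody-secreting cells, measured 1009, 1045 and 695 in Flica-positive, 119, 60.7 and 48.3 in Flica-negative and 46.7, 16.1 and 42.3 in control CD8 cells. It was higher in Flica-positive cells than in either (log2 3.59, adjusted p = 4.2e-05 and log2 4.70, adjusted p = 4.6e-05). Prdm1 and Irf4, transcription factors of plasma cells and of effector T cells alike, were above control on day 7 but not above Flica-negative in Flica-positive cells (Prdm1 log2 -0.51, adjusted p = 0.10, and Irf4 log2 -0.57, adjusted p = 0.044). Pou2af1, a B cell coactivator of immunoglobulin promoters, measured 59.8, 161 and 59.8 in Flica-positive, 11.7, 38.3 and 14.7 in Flica-negative and 730.4, 653 and 499 in control CD8 cells.

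**Figure D5:**
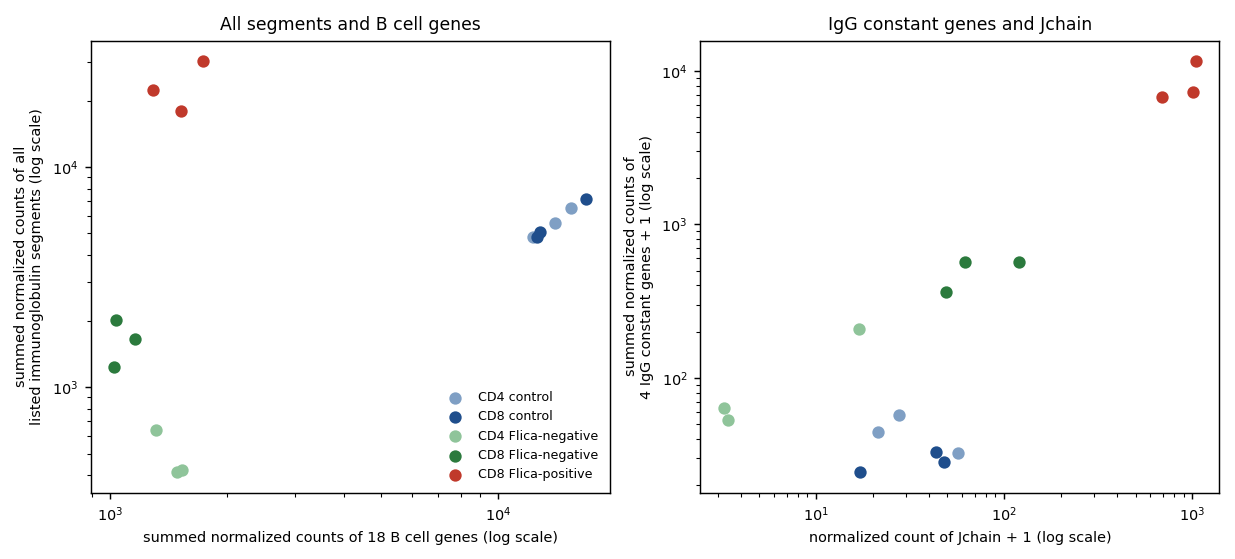
Left, summed normalized counts of all listed immunoglobulin segments against those of 18 B cell markers; right, summed normalized counts of the 4 IgG constant genes against the count of Jchain (1 added to both), 1 point per library for the 15 libraries, all axes on a log scale. Control libraries are high in B cell markers (12292 to 16853) and low in IgG (23.3 to 56.0), and Flica-positive libraries show the reverse (1293 to 1738 and 6783 to 11584).

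Markers of other cell types moved with the same groups. All 11 neutrophil markers were listed and all were higher in Flica-positive CD8 cells than in Flica-negative ones, where 21.7% of all genes were called higher. Their sum lay between 194966 and 369546 in Flica-positive, 11514 and 17756 in CD8 Flica-negative, 2474 and 7415 in CD4 Flica-negative and 27.8 and 84.9 in control libraries. Of 10 macrophage markers 7 were listed and all 7 were higher in Flica-positive cells than in Flica-negative ones. Of 10 receptors that bind antibody, 7 were listed and 6 were higher in that comparison, among them Fcgr3 (936, 1299.6 and 1521 against 89.5, 89.6 and 104, log2 3.73, adjusted p = 5.1e-06) and Fcgr4 (379, 711 and 585 against 40.5, 46.7 and 17.3, log2 4.0, adjusted p = 6.3e-05). The erythroid sum was highest in Flica-positive replicate 1 (111233) and 1739 at the lowest in that group. The part of such cells in the immunoglobulin values was not tested.

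T cell receptor segments, the counterpart of the immunoglobulin segments in T cells, did not share their rise. Of 37 listed, 35 were tested between the day 7 CD8 groups, where 0 were higher and 1 was lower, with a median log2 fold change of -1.65. Of all genes, 21.7% were called higher and 2.8% lower there, so the share of lower segments was near the background. Against control cells 1 was higher and 17 were lower in Flica-positive cells, where 47.2% of all genes were called higher and 24.2% lower.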

How the data were processed

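RNA of sorted mouse T cells from 5 groups with 3 libraries each was sequenced after oligo-dT capture. The submitters' processing notes name STAR 2.7.1a, DESeq2 and GRCm38, and the counting tool and its use of strand are not given in the sources used here. The authors deposited 4 tables of selected genes with raw read counts of all 15 libraries, and the mean expression signal deposited beside them is the mean of counts divided by the authors' size factors. Their fold change and p-value columns and 4 enrichment tables were not used. Size factors were recovered from counts and means. Genes with a summed count of at least 10 in the libraries of a fit were tested with edgeR 4.0.16 (quasi-likelihood, the groups compared only, authors' size factors, Benjamini-Hochberg over all listed genes tested) with limma 3.58.1 in R 4.3.3, and the script was tested on simulated data. The adjustment covers listed genes only, which had been selected on the same libraries, so p-values of the 4 listed comparisons are not independent evidence. The labels call the libraries biological replicates. A floor of 3 counts per library sets bounds against groups at 0 and covers counting error only. Depth is unknown, since only counts on listed genes were used.

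Alternatives were TMM and summed-count scaling, no filter, a mean filter of 10, DESeq2 1.42.0, all 15 libraries in 1 fit, a replicate block and leaving out each library. Class sums and shares were computed without a test, shares per kilobase of GENCODE M21 exon. Sequences were read from GENCODE M21 transcripts and aligned with Biopython, taking for each gene the transcript with the longest coding sequence. Tables and plots used Python 3.11.15, pandas 2.3.3, numpy 2.4.6 and matplotlib 3.10.9. Named segments were all constant, joining and lambda segments, the 8 heavy and 8 kappa variable segments with the largest mean over all libraries, and segments called against the majority. Members and marker lists were chosen with earlier results of these data known.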

Additional observations from a re-analysis of the deposited data

Results flagged for a closer look

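In all, 11 segments responded differently in CD4 and CD8 Flica-negative cells, tested with edgeR as the interaction of day and lineage in the Flica-negative and control groups. Of 106 segments tested, 10 had a lower and 1 had a higher response in CD4 cells, against 4.66% and 5.7% of all genes. The difference of the log2 responses (CD4 minus CD8) was -2.38 for Igkc (SE 0.50, adjusted p = 0.0042), whose level fell 14.3-fold in CD4 and 2.74-fold in CD8 cells. It was 7.78 for Ighj1 (adjusted p = 0.012), which measured 7.05, 17.9 and 84.9 in CD4 and 0, 0 and 6.04 in CD8 Flica-negative cells, and the call was lost without CD4 Flica-negative replicate 3 (6.23, adjusted p = 0.063). The remaining 9 segments had no read in any CD4 Flica-negative library, so their fitted differences are no bound: -8.00 for Ighv1-26 (adjusted p = 0.0032), -7.36 for Igkv1-110 (adjusted p = 0.0085), -7.55 for Igkv9-120 (adjusted p = 0.0089), -6.79 for Igkv5-48 (adjusted p = 0.034), -6.39 for Iglc2 (adjusted p = 0.043), -6.53 for Ighv1-82 (adjusted p = 0.044), -7.45 for Igkv4-57 (adjusted p = 0.046), -7.03 for Igkv10-94 (adjusted p = 0.047) and -6.18 for Igkv3-12 (adjusted p = 0.047). In CD8 Flica-negative cells Ighv1-26 measured 41.5, 45.7 and 5.18 and Iglc2 0, 27.1 and 5.18. The calls of Ighv1-82 and Iglc2 were lost when any of several libraries was left out, with adjusted p up to 0.10 and 0.13.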

How the results depend on the processing

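Of 1428 alternative values for 108 calls of named segments, 1238 kept direction and side of the threshold, 185 kept direction only and 5 reversed. The reversals all came with scaling by summed counts, for Flica-positive against control CD8 cells: Ighv1-64 -0.13, Igkc -0.24, Igkv1-110 -0.10, Igkv1-117 -0.11 and Igkv1-135 -0.54 (log2). With TMM scaling the log2 ratio of summed lambda variable segments in that comparison was -0.049 in place of 1.70 and that of lambda constant genes -1.68 in place of 0.05. The number of segments called changed by over 1.5 times under these settings: 27 between the day 7 CD8 groups with summed-count scaling; 41 in CD4 Flica-negative cells against control and 5 between CD4 and CD8 Flica-negative cells with a mean of at least 10, which tests fewer genes; 0 between controls with all 15 libraries in 1 fit; and 5, 18 and 6 for the difference of CD4 and CD8 responses with TMM scaling, DESeq2 and all 15 libraries. The replicate block did so too. It gave 19 in place of 35 for Flica-positive and 27 in place of 51 for Flica-negative CD8 cells against control. For CD4 Flica-negative cells against control it gave 45 in place of 77, and for the difference of responses 7 in place of 11. The cause of the other changes was not tested. Leaving out 1 library gave 28 to 58 calls between the day 7 CD8 groups, 26 to 48 for Flica-positive and 33 to 47 for Flica-negative CD8 cells against control, 59 to 76 for CD4 Flica-negative cells against control, 5 to 10 between CD4 and CD8 Flica-negative cells, 0 to 1 between controls and 5 to 11 for the difference of responses.

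Replicate numbers are shared between groups, but deviations of same-numbered libraries correlated at only 0.128, 0.0392 and 0.0771 between the day 7 CD8 groups. The range was 0.0282 to 0.113 between CD4 and CD8 Flica-negative cells and 0.0267 to 0.0963 between CD4 and CD8 control cells. Between day 7 and control groups it was -0.0690 to 0.00387. The same-day values were thus all positive but small, and the numbers were not taken to pair libraries. With the replicate block, 55 segments were called between the day 7 CD8 groups, 19 and 27 for Flica-positive and then Flica-negative CD8 cells against control, 45 for CD4 cells, 10 between CD4 and CD8 Flica-negative cells, 1 between controls and 7 for the difference of responses. Depth limits segments with few reads, chiefly in CD4 Flica-negative libraries.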

Other observations

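Among listed genes that are not immunoglobulin segments, those whose pattern over the 15 libraries was most like that of the summed segments were Cd24a, Wdfy4, Lmo2, Lyl1 and Pld4. Genes were ranked by the linear correlation of log2 normalized counts with 1 added. No pooled coefficient is given because the libraries fall into 5 groups. The genes most like Ighd were Thra, H2-Eb2, Cdk10, H2-Ob and Cyth3, of which H2-Eb2 and H2-Ob belong to the MHC class II region. Those most like the summed IgG genes were Erg, Dach1, Adtrp, C1rb and Mcpt8, the last a protease of basophils. The 3 sets had no gene in common.

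Slpi, a secreted protease inhibitor on the plasma cell list, measured 216, 347 and 584 in Flica-positive, 8.52, 7.46 and 25.9 in Flica-negative and 17.6, 0 and 11.5 in control CD8 cells (edgeR, adjusted p = 0.00016 and 0.0023 for Flica-positive cells against the other groups). Fcer1g, the signalling chain shared by several antibody receptors, measured 1453, 2394 and 2049.7 in Flica-positive, 414, 513 and 444 in Flica-negative and 18.5, 17.9 and 22.1 in control CD8 cells, a graded order without overlap.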
